A study of Mus musculus with 4 samples.

Results

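FB4 cells are fibroblasts of the intestinal submucosa, the layer under the crypts, that the study named by Ackr4 and Grem1. Here they were taken as the cells of 1 single-cell library with a UMI (unique molecular identifier, 1 counted RNA molecule) of at least 3 of 6 genes, namely Ackr4, Grem1, Cilp, Scara5, Pcolce2 and Lbp. Of 4108 cells in that library, 943 met the rule, a share of 23.0% (exact binomial 95% interval, 21.7% to 24.3%), and the remaining 3165 are the comparison group, called the other cells. The library, labelled LATS1/2 KO 1w, came from adult C57BL/6J mice whose PDGFRb+ stromal cells carried CreERT2 under the Pdgfrb promoter, a tdTomato reporter, and loxP-flanked alleles of both Lats1 and Lats2, 1 week after tamoxifen. All cells of the library share this genotype, and both the other cells and the FB4 cells are therefore LATS1/2-deleted to the extent that the Cre had acted in them. The sort kept tdTomato-positive cells of the small intestine after removal of its serosa, muscle layer and Peyer's patches and after bead depletion of CD45, CD326 and CD31 cells. The series holds 4 single-cell samples, of which the 2 wild-type ones and the one taken 2 weeks after tamoxifen were not analysed here, so nothing below compares the deletion with its control. With 1 library no value has a biological replicate: intervals cover counting error only, cells are not replicates, and no test was run.

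Fibroblasts of the gut wall differ by depth. Those around crypts and in the submucosa secrete BMP antagonists such as Gremlin-1 and the R-spondins, which keep Wnt signalling high near the stem cells, while fibroblasts at the epithelial border and in the villus secrete BMP ligands that favour differentiation. Submucosal fibroblasts also lay down the adventitia-like matrix around larger vessels and lymphatics. LATS1 and LATS2 are the kinases of the Hippo pathway that keep the coactivators YAP and TAZ out of the nucleus. When these kinases are lost, YAP and TAZ act with TEAD factors on genes such as Cyr61, Ctgf, Amotl2 and Crim1. The study asked which PDGFRb+ cells make VEGF-C, the growth factor that drives lymphatic vessels through VEGFR3.

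The 6 rule genes chose the cells, so their values are a description. Ackr4, an atypical receptor that scavenges the chemokines CCL19, CCL21 and CCL25 (chromosome 9, 104084157 to 104126933, minus strand, GRCm38), had a UMI in 83.1% of FB4 cells and 8.06% of the other cells. Its level was 446 CPM (UMIs per 1000000 summed UMIs of a set of cells) against 14.3 CPM. Grem1, a secreted antagonist of BMP2 and BMP4 (chromosome 2, 113746164 to 113758646, minus strand), was found in 91.6% against 23.0% of cells, at 677 against 65.4 CPM, and was the rule gene with the most cells outside the set. Per cell, Grem1 ran from 0 to 62.6 UMIs per 10000 in FB4 cells, with a median of 5.03. Pcolce2, which enhances removal of the procollagen C-propeptide (chromosome 9, 95637601 to 95698096, plus strand), was in 94.5% against 11.6%, at 449 against 20.8 CPM. Scara5, a ferritin receptor (chromosome 14, 65666403 to 65764826, plus strand), was in 69.4% against 2.91%, at 191 against 4.83 CPM. Lbp, the LPS-binding protein (chromosome 2, 158306493 to 158332852, plus strand), was in 56.3% against 3.76%, at 118 against 4.65 CPM, and Cilp, a matrix protein of the cartilage intermediate layer that binds TGF-beta (chromosome 9, 65265180 to 65280605, plus strand), was in 52.1% against 4.93%, at 200.4 against 6.06 CPM. FB4 cells held between 78.6% (Grem1) and 93.3% (Scara5) of all UMIs of each gene, beside 26.2% of all UMIs of the library. They were also the more deeply read set, with a median of 12117 UMIs per cell against 10305, and a deeper cell shows more of the 6 genes at the same level.

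**Figure D1:**
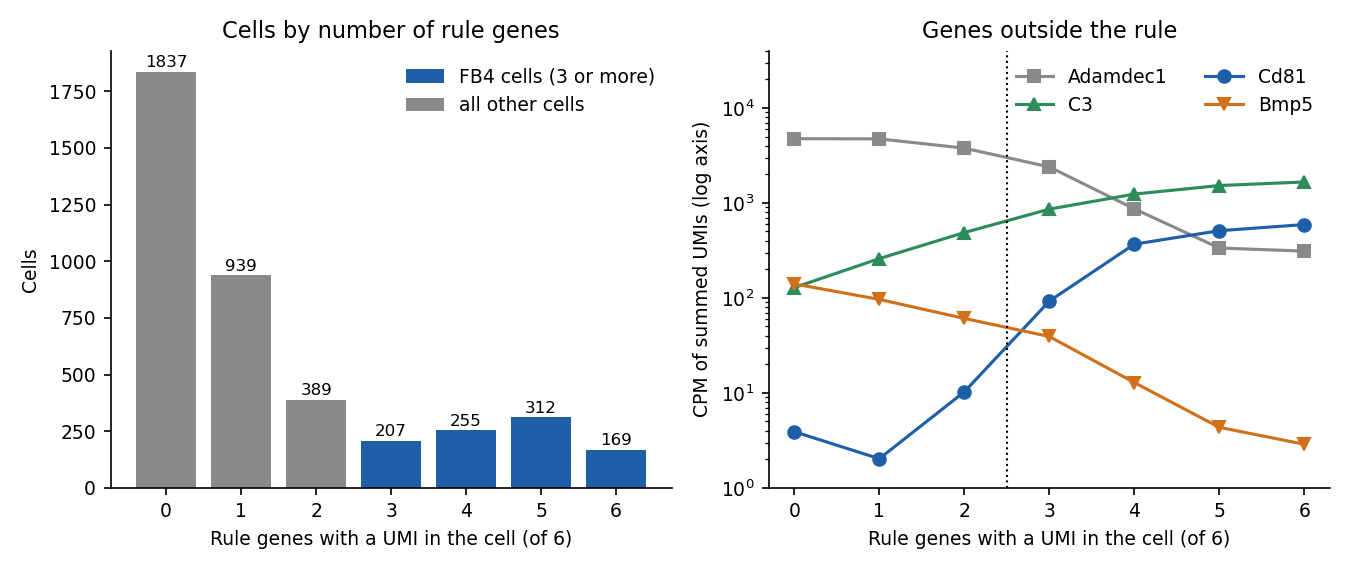
Left, number of cells (y axis) by how many of the 6 rule genes had a UMI in the cell (x axis), with FB4 cells in blue. Right, CPM of summed UMIs (log axis) of 4 genes outside the rule in the same 7 bins, where Cd81 goes from 10.2 to 92.4 CPM between the bins with 2 and 3 rule genes while Adamdec1 is still at 2393 CPM in the latter.

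The edge of the set was not sharp. By the number of rule genes with a UMI, from 0 to 6, the library held 1837, 939, 389, 207, 255, 312 and 169 cells. The 207 cells just inside the threshold, with 3 genes, had 92.4 CPM of Cd81, a tetraspanin that leads the FB4 set, and the 389 cells just outside it, with 2 genes, had 10.2 CPM. Cells with 5 and 6 genes had 509.7 and 591.5 CPM (values of 3.90 and 2.03 CPM belonged to cells with 0 and 1). Adamdec1, a secreted ADAM-like protease of the lamina propria and a marker of the villus fibroblasts, went the other way, with 3773 CPM in cells with 2 rule genes, 2393 in cells with 3, 866 in cells with 4 and 311 in cells with 6. Clusters made from the expression data without the rule genes or any listed gene gave the same picture. One of 9 clusters, called FB4-like because at least 4 of the 6 rule genes were 2 or more times higher in it than elsewhere, held 690 cells, of which 672 met the rule. It took in 22.2% of cells with 3 rule genes, 71.4% of those with 4, 91.0% with 5 and 94.7% with 6, against 3.86% of those with 2.

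Thus 271 of the 943 FB4 cells (28.7%, 25.9% to 31.7%) lay outside the FB4-like cluster. They fell mainly in clusters 1, 2 and 3, with 108, 66 and 89 cells, whose Adamdec1 level was 4470 to 5009 CPM beside 197 CPM in the FB4-like cluster. The 6 rule genes together stood at 1052 CPM in rule cells outside the cluster and at 2537 CPM in those inside. Cells with both an Xist UMI and a Y-linked UMI, which a droplet with 2 cells can give, were 9.59% of the rule cells outside the cluster, 1.93% of those inside and 2.43% of the other cells. What part of the cells outside the cluster were doublets was not tested. Results below are for the rule, and values of the 690 cells of the FB4-like cluster are given beside those named with them.

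The label was set beside markers the rule did not use. Their lists were chosen with earlier results of these data known, so the values describe the cells and are no independent check. All 10 of the other submucosal markers (Cd81, Cd34, Pi16, Dpp4, Ly6a, Igfbp6, Col8a1, Piezo2, Rspo3 and Has1) were at least 2 times higher in FB4 cells, at 3230 CPM in sum against 719.7 CPM in the other cells. The 4 markers of the villus fibroblasts vFB1 and vFB2 were mixed, with a median ratio of 1.06. Adamdec1 was at 871 against 4612 CPM and Dkk2 at 139.8 against 325 CPM, while Shisa3 (1.69 times) and Serpina3n (1.87 times) leaned to the FB4 cells. Their sum, 1373 against 5138 CPM, is mostly Adamdec1. The vFB3 sum (Tacr1, at 0 UMIs in FB4 cells, with P2rx1, Itga8, Mmp10, Fhl2 and Sertm1) was 30.3 against 315 CPM, and the FB5 sum (Sox6, Foxl1, Bmp3, Bmp5, Bmp7 and Ednrb, the subepithelial fibroblast) 37.9 against 263 CPM. Smooth muscle markers summed to 86.6 against 278 CPM and mural cell markers to 266 against 691 CPM. Of the cells the depletion was meant to remove, all 5 epithelial markers were at 0 UMIs, 3 of 6 endothelial markers (Pecam1, Cdh5 and Tie1) were at 0 with a sum of 1.08 CPM, and 6 immune markers summed to 20.3 CPM with Cd3e at 0. The authors had also taken out Ptprc+ immune and Pecam1+ endothelial cells from the data, so low values of those markers were in part given beforehand. Pdgfrb itself, whose promoter drove the Cre, was at 318 CPM in FB4 cells and 609 CPM in the other cells. Lats1 read 14.3 against 14.2 CPM and Lats2 45.2 against 56.5 CPM, but tags from the 3′ end do not read a deleted exon, so these values are no check of the deletion.

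RNA set free from broken cells adds a background to every droplet. Its size was bounded by the Y-linked UMIs of the 2004 cells with 5 or more Xist UMIs, at 6.60 CPM against 76.4 CPM over the library, which puts at most 8.64% of a cell's UMIs in that background if it has the library's make-up. That bound is 314 CPM for Adamdec1, 10.4 for Vegfc, 13.0 for Amotl2, 0.927 for Wisp2 and 25.9 for Igfbp3, and a level at or below it is not read as expression. The FB4-like cluster's 197 CPM of Adamdec1 is below it, the Igfbp3 level of FB4 cells (31.4 CPM) is just above it, and the levels of Vegfc, Amotl2 and the rule genes in FB4 cells are well above it.

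Against the other cells, the gene with the highest ratio among those with a UMI in 30% or more of the FB4 cells was Cd81, and lower levels were seen for 9 of 16 contractile genes, for Bmp5 and for Igfbp3. Among 8423 genes with at least 10 CPM over the library, 199 (2.36%) were at least 2 times higher in FB4 cells and 297 (3.53%) were at most 0.5 times, with a median ratio of 0.926. The rule chose the cells on this contrast, so these are descriptions of the chosen cells. The 271 rule cells outside the FB4-like cluster, taken alone, had 74 genes at least 2 times higher than the other cells and 116 at 0.5 times or less. Cd81 (chromosome 7, 143052739 to 143067934, plus strand) was at 408 CPM against 4.15 CPM, a ratio of 98.2 (95% interval 83.1 to 117), with a UMI in 67.7% of FB4 cells and 2.50% of the others. The other cells' value lies under the free-RNA bound of 9.49 CPM, so the size of the ratio is not read as one of expression. It was 48.9 with at least 4 rule genes and 50.1 in the FB4-like cluster against all cells outside it. After every cell was thinned to 5000 UMIs the shares were 62.7% and 1.20%. With the rule genes left out, the next gene with a UMI in 30% or more of the FB4 cells was Gngt2, a gamma subunit of G proteins, at 25.6 times (16.7 in the cluster). It was followed by Fam129a at 24.9 times and Piezo2, a mechanically gated channel, at 12.5 times (104 against 8.36 CPM).

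The next genes in order of ratio fall into a few kinds. Receptors and adhesion molecules were Vldlr (11.1 times), a reelin and lipoprotein receptor, Cadm3 (10.3), Pianp (7.51) and Flrt2 (6.30), the last a ligand of UNC5 receptors. Matrix genes were Col8a1 (165 against 15.6 CPM, 10.6 times), a short-chain network collagen, Olfml2b (10.3), Vit (9.82) and Mfap5 (698 against 109.9 CPM, 6.35 times), a microfibril protein. Gfpt2, an enzyme of hexosamine synthesis that feeds hyaluronan, was at 12.1 times, and Dhrs3, a retinaldehyde reductase, at 6.63 times. Gdf6, a ligand of the BMP family, was at 56.1 against 8.27 CPM (6.79 times). Ebf1, a transcription factor of B cells and of adventitial stroma, was at 296 against 36.6 CPM (8.09 times). Abundant secreted products closed the list, with Prss23 at 1245 against 193 CPM, Igfbp6, which binds IGF-2, at 544 against 82.4 CPM, and complement C3 at 1347 against 215 CPM, found in 94.9% against 42.4% of cells.

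**Figure D2:**
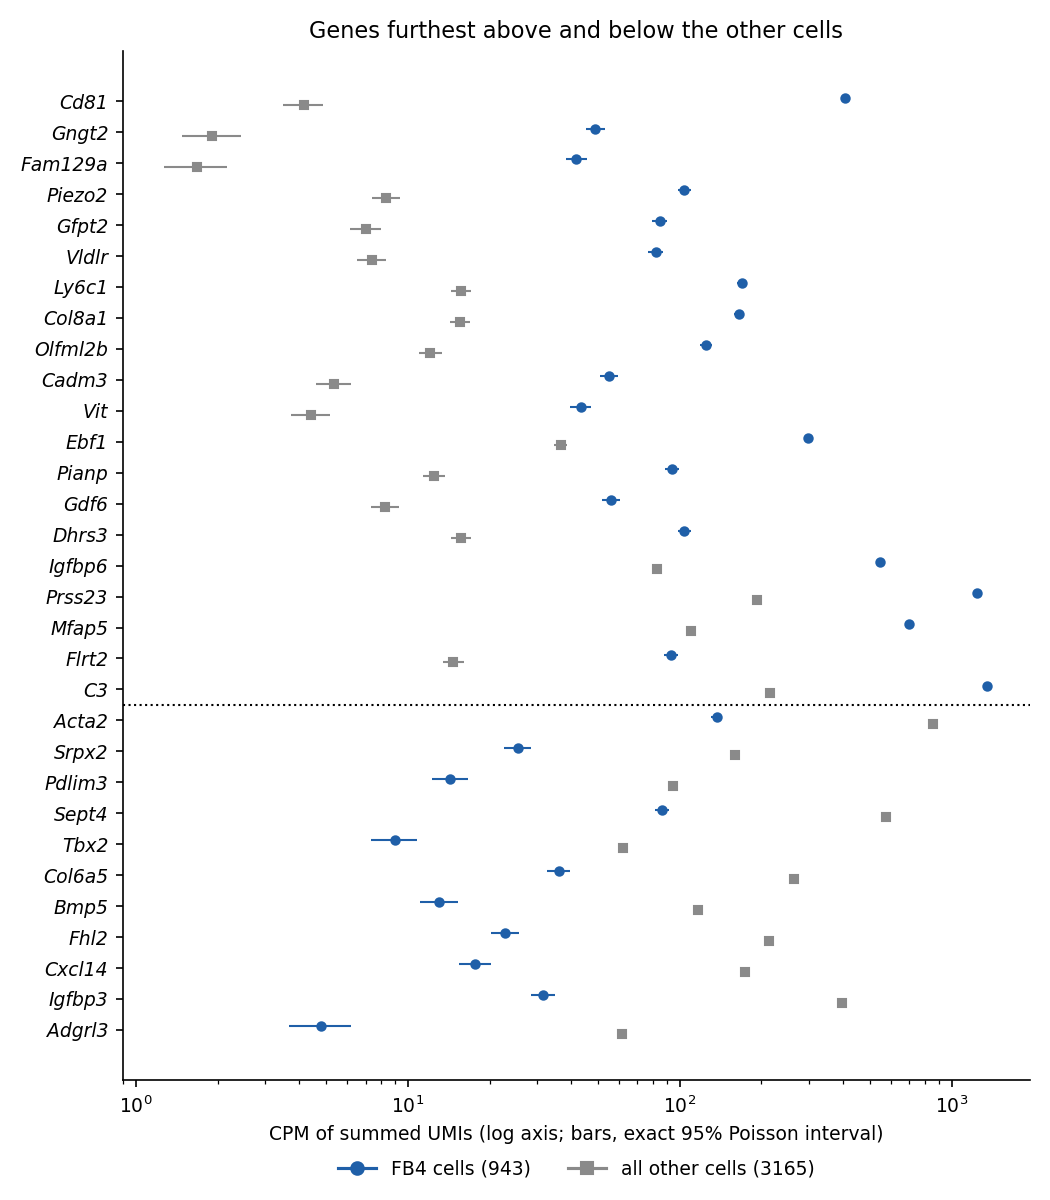
CPM of summed UMIs (x axis, log) of the 20 genes with the highest and 11 of the 12 with the lowest ratio of FB4 cells (blue circles, 943 cells) to the other cells (grey squares, 3165 cells), with exact 95% Poisson intervals as bars. The gap is widest for Cd81, at 408 against 4.15 CPM, and the genes under the dotted line, from Acta2 to Adgrl3, lie lower in FB4 cells.

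At the low end stood Adgrl3, an adhesion receptor (4.81 against 61.6 CPM, 0.078 times), and Igfbp3, an IGF-binding protein (31.4 against 395 CPM, 0.0794 times). Cxcl14, a chemokine, was at 0.102 times and Fhl2, a LIM protein that works with actin and serum response factor, at 0.107 times. Bmp5, a BMP ligand, was at 13.1 against 117 CPM (0.112 times), and Acta2, smooth muscle actin, at 137 against 854 CPM (0.160 times). Col6a5, Tbx2, Sept4, Pdlim3 and Srpx2 were also among the 12 lowest, all between these values. In the FB4-like cluster Igfbp3 stood at 6.81, Adgrl3 at 1.17, Bmp5 at 0.940 and Acta2 at 47.7 CPM, each under its free-RNA bound (25.9, 4.04, 7.73 and 57.6 CPM).

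Gene groups were then counted against the 2.36% and 3.53% of all genes. The lists were chosen with earlier results of these data known, so the counts are descriptions. In the adventitial group, Cd34, Pi16, Dpp4, Ly6a, Igfbp6 and Has1 are also submucosal markers given above and are counted again. That group had 12 of 16 counted genes at least 2 times higher and a median ratio of 3.79. Beside Ly6c1 (10.8 times), Igfbp6 and Mfap5 it held Ly6a, the stem cell antigen Sca-1 (929.9 against 207 CPM), Cd34 (722 against 328 CPM), Has1, a hyaluronan synthase (62.7 against 10.8 CPM), and Anxa3 (139 against 27.9 CPM). Pi16, a peptidase inhibitor that marks adventitial fibroblasts, was at 139.5 against 1.24 CPM, with a UMI in only 22.1% of FB4 cells and up to 44.6 UMIs per 10000 in a cell. The other cells' Pi16 level lies under its free-RNA bound of 3.24 CPM, so no ratio is given. Procr, also in that group, was at 3.73 against 41.2 CPM (0.0905 times).

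Complement genes were higher in 5 of 11 counted and lower in none, with a median ratio of 1.85. Besides C3 these were Cfb, the protease of the alternative pathway (4.22 times), Cd55, which breaks up C3 convertases (306 against 99.1 CPM), C7 (2.32 times) and C2 (2.04 times). C4b was at 979.9 against 530.3 CPM (1.85 times). Of 8 counted cytokine genes 1 was higher, Il33, an alarmin that stromal cells release (256 against 90.2 CPM). Lower were 3, Kitl (0.284 times), Tnfsf13b, which encodes BAFF (0.389), and Il15 (0.464). Of 11 counted chemokine genes and receptors, 1 was higher (Ackr4, a rule gene) and 5 were lower. The lower ones were Cxcl14, Ccl11, which draws eosinophils (377 against 1358 CPM, 0.277 times), Ccl8, Cxcl16 (0.340 times) and Cxcl12 (646 against 1362 CPM, 0.474 times). Cxcl13, which draws B cells, was at 123 against 121 CPM.

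Of 6 counted R-spondin and Wnt genes 3 were higher and 1 lower. Rspo1, Rspo2 and Rspo3, agonists that raise Wnt receptor levels, were 3.02, 3.81 and 2.40 times higher, with Rspo3 at 123 against 51.4 CPM, and Wnt4 was at 3.89 against 74.1 CPM, the former under its free-RNA bound of 4.81 CPM. Wnt2b was at 32.2 against 21.2 CPM and Wnt5a at 25.8 against 38.0 CPM. The list of 7 BMP ligand genes holds Bmp1, a procollagen C-proteinase, and does not hold Gdf6, which was at 6.79 times. None of the 7 was 2 times higher, 2 were lower (Bmp5, and Bmp7 at 0.580 against 21.3 CPM, where 0.580 is under the bound of 1.37 CPM), and the median ratio was 0.583, with Bmp4 at 354 against 608 CPM and Bmp2 at 54.9 against 105 CPM. Of 4 counted BMP antagonists 2 were higher, the rule gene Grem1 and Chrdl1 (49.5 against 4.62 CPM, 10.7 times), while Fstl1 (1.15 times) and Bambi (1.43 times) passed neither threshold.

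The contractile group was lower in 9 of 16 counted genes and higher in none (median ratio 0.471). Tagln, an actin-binding protein, was at 129 against 713 CPM, Myl9, a regulatory myosin light chain, at 121 against 393 CPM, and Tpm2, a tropomyosin, at 189 against 474 CPM. Zyx, a focal adhesion protein, was the member furthest the other way, at 108 against 61.7 CPM. The lower sums of smooth muscle and mural cell markers given above go with this group, and their part in it was not tested. Matrix genes were mixed. Of 17 collagen genes 2 were higher (Col8a1 and Col14a1, the latter at 2.41 times) and 3 lower (Col12a1, Col15a1 and Col18a1), while the fibrillar Col1a1, Col1a2 and Col3a1 were at 1.41, 1.54 and 1.45 times. Of 10 small proteoglycan genes 3 were higher, with decorin (Dcn) at 20125 against 8311 CPM. In the elastic fibre group 3 of 13 were higher and 1 lower, and Fbln1 was at 2.69 times and Fbln5 at 0.351 times (437 against 1243 CPM). Of 11 matricellular genes 3 were higher, the rule gene Cilp, Tnxb (2.67 times) and periostin (Postn, 378 against 87.2 CPM), and 1 lower, Tnc (0.319 times). Immediate-early genes, which tissue digestion can switch on, ranged from 1.04 (Socs3) to 2.28 times (Atf3) in FB4 cells, and 2 of 14 passed 2 times.

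The growth factors of lymphatic vessels were mixed, with 2 of 7 counted higher and 1 lower. Vegfc (chromosome 8, 54077606 to 54187096, plus strand) was at 85.8 CPM in FB4 cells and 133 CPM in the other cells, a ratio of 0.647 (0.604 to 0.693), and FB4 cells held 18.7% of its UMIs beside 26.2% of all UMIs. The ratio was 0.568 in the rule cells inside the FB4-like cluster and 0.825 in those outside it. A Vegfc UMI was seen in 48.0% of FB4 cells and 50.8% of the others, and after thinning to 5000 UMIs in 29.2% and 36.1%. In the FB4-like cluster Vegfc was at 75.3 CPM, below clusters 1, 5, 8 and 9 (209, 277, 79.2 and 387 CPM) and above clusters 2, 3, 6 and 7 (39.7 to 69.5 CPM). FB4 cells thus were neither the highest nor the lowest in Vegfc. Vegfd, the other ligand of VEGFR3, was at 129 against 28.9 CPM (4.48 times, 4.13 to 4.86), with a UMI in 63.7% against 19.2% of cells. Adm, adrenomedullin, which acts on lymphatic endothelium, was at 116 against 53.6 CPM (2.17 times), Hgf at 23.9 against 49.5 CPM, Vegfa at 10.9 against 12.2 CPM and Ccbe1, needed to process VEGF-C, at 12.8 against 16.2 CPM.

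Of 17 counted YAP targets 1 was higher (F3, tissue factor, 101 against 31.1 CPM) and 3 were lower, namely Igfbp3, Foxf2 (0.297 times) and Ptpn14 (0.475 times), beside 2.36% and 3.53% of all genes. Of 18 Hippo pathway genes none passed either threshold. Amotl2, a YAP target that binds YAP in turn (chromosome 9, 102716672 to 102733418, plus strand), was at 164 against 146 CPM, a ratio of 1.13, and was seen in 63.4% against 57.7% of cells. Cyr61 was at 357 against 370 CPM, Ctgf at 44.5 against 72.2 CPM and Crim1 at 62.3 against 97.4 CPM. Wisp2, a secreted CCN protein (Ccn5, chromosome 2, 163820861 to 163833146, plus strand), was at 24.4 against 5.88 CPM, 4.14 times (3.45 to 4.98), in 10.6% against 3.10% of cells.

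The FB4 cells differed widely among themselves in Vegfc and Amotl2. The sum of both genes ran from 0 to 13.3 UMIs per 10000 with a median of 1.47. With 3 or more called high and 1 or less called low, 277 cells (29.4%, 26.5% to 32.4%) were high, 276 were between and 390 (41.4%, 38.2% to 44.6%) were low. Among the other cells 34.1% were high and 37.4% low. Counts per cell are small, so a cell's place near a threshold rests on 1 or 2 UMIs. High cells were read somewhat more deeply, with medians of 13020 UMIs in high, 11592.5 in middle and 11782 in low cells. High cells made up 35.0% of the FB4 cells with an Xist UMI (191 of 545) and 21.6% of those without (86 of 398). The paper used Xist as a transcript specific to females. An Xist UMI was in 69.0% of high and 49.7% of low cells, so the comparison of the 2 sets is not balanced by sex. The labels do not give the number of mice in the library.

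**Figure D3:**
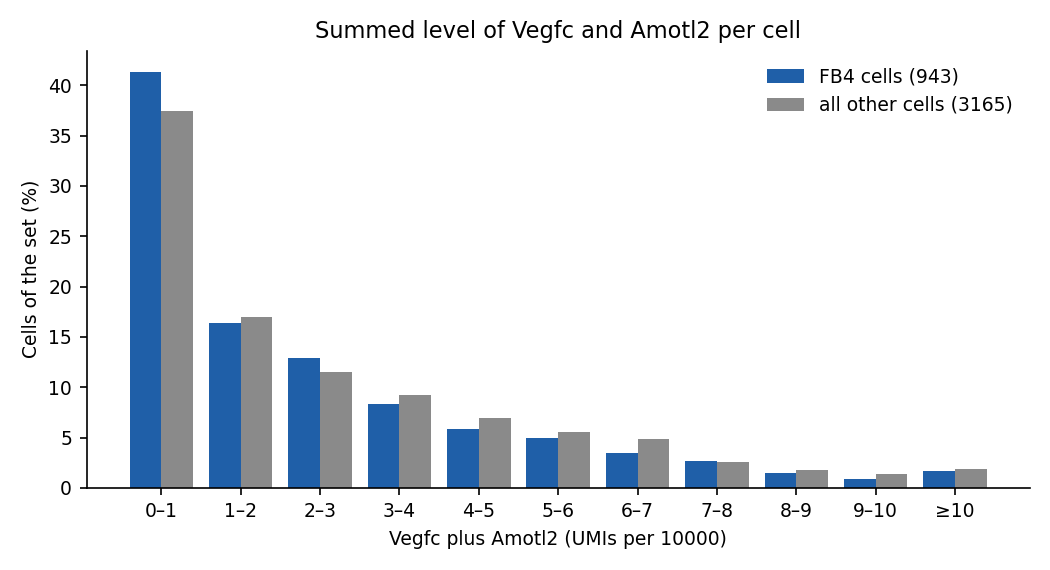
Share of cells (y axis, percent of the set) by the sum of Vegfc and Amotl2 in UMIs per 10000 (x axis, bins of 1), for FB4 cells (blue) and the other cells (grey). Both sets pile up in the lowest bin, at 41.4% and 37.4%, and thin out to 1.70% and 1.86% at 10 or more.

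The pair of genes went together within cells. Amotl2 was at 232 CPM in FB4 cells with a Vegfc UMI and at 92.4 CPM in those without, a ratio of 2.51 (2.27 to 2.77), and Vegfc was at 108 against 40.2 CPM by Amotl2 (2.68 times, 2.26 to 3.19). Cells with the UMI were deeper, with a median of 12913 against 11545.5 UMIs for Vegfc and 12814 against 11068 for Amotl2. In the FB4-like cluster the ratios were 2.33 and 2.18, and in the other cells 2.55 and 3.34.

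Between high and low FB4 cells the highest ratio among genes with a UMI in 10% or more of the high cells was that of Wisp2. Among 8202 genes with 10 CPM or more over both sets, leaving out Vegfc and Amotl2, 174 (2.12%) were at least 2 times higher in high cells and 85 (1.04%) were at most 0.5 times. Within the FB4-like cluster 203 (2.5%) and 111 (1.37%) of 8121 genes were. Of the genes counted in both, 155 were higher in both definitions, which is 94.5% of the rule's and 78.3% of the cluster's, and 68 were lower in both, 82.9% and 66.7%. Since 672 of the cluster's 690 cells meet the rule, the definitions share most cells and this overlap is no second check. These sets were chosen on measured UMIs of Vegfc and Amotl2 in the same cells, so genes that vary with them enter by that choice. Leading genes are those with a UMI in 10% or more of the higher set.

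Wisp2 was at 64.4 CPM (56.7 to 72.9) in high cells, 11.1 CPM (7.89 to 15.3) in middle and 1.26 CPM (0.461 to 2.73) in low cells, and the intervals do not overlap. These are 250 UMIs in high cells and 6 in low cells, a ratio of 51.3 (23.2 to 141), seen in 29.96% and 1.54% of cells, and in 17.8% and 0.258% after thinning to 5000 UMIs. The low cells' value is close to the free-RNA bound of 0.927 CPM. With cells thinned to 5000 UMIs before they were chosen the ratio was 12.8, and with the split by Vegfc alone 5.48. In the FB4-like cluster it was 48.4. Among the other cells Wisp2 was at 13.1 against 0.599 CPM, and no ratio is given since the latter is under the bound. Bmp3, a BMP family member that opposes BMP signalling in bone, stepped from 2.09 in low to 4.99 in middle and 42.5 CPM in high cells, and Bdnf, a neurotrophin, from 2.09 to 6.75 and 24.0 CPM. The low cells' values are close to the free-RNA bounds of 1.97 CPM for Bmp3 and 1.56 CPM for Bdnf. In the FB4-like cluster Bdnf had no UMI in low cells, so no ratio could be had. Plscr2, a scramblase, was at 13.7 times.

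Among matrix genes, Fmod, fibromodulin, which binds fibrillar collagen, was at 88.6, 26.1 and 7.74 CPM in high, middle and low cells, 11.4 times. Adamts5, an aggrecanase, was at 382, 126 and 51.1 CPM (7.49 times, 6.54 to 8.61), with a median of 2.28 UMIs per 10000 in high cells and 0 in low cells. Ogn, osteoglycin, was at 1916, 902 and 528 CPM and Fbln5, which assembles elastic fibres, at 771, 409 and 185 CPM. Efemp1 (3.13 times), Prelp (2.48), Podn (2.09) and Lox, the lysyl oxidase (2.77), were also higher. By group, 4 of 10 proteoglycan genes and 3 of 13 elastic fibre genes were at least 2 times higher and none of either was 0.5 times or less, beside 2.12% and 1.04% of all genes. Of 17 collagens 1 was higher (Col12a1), of 12 collagen processing genes 1 (Lox), and of 11 matricellular genes 1 was higher (Tnc) and 1 lower (Cilp). Tnc, tenascin-C, was at 132 against 30.6 CPM and Col12a1 at 66.5 against 21.8 CPM, while Col1a1 and Col3a1 were at 1.43 and 1.23 times. Nid2, a basement membrane linker, was at 18.8 against 3.77 CPM, the latter under its bound of 4.01 CPM. Over the FB4-like cluster it stood at 3.29 CPM, also under that bound.

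**Figure D4:**
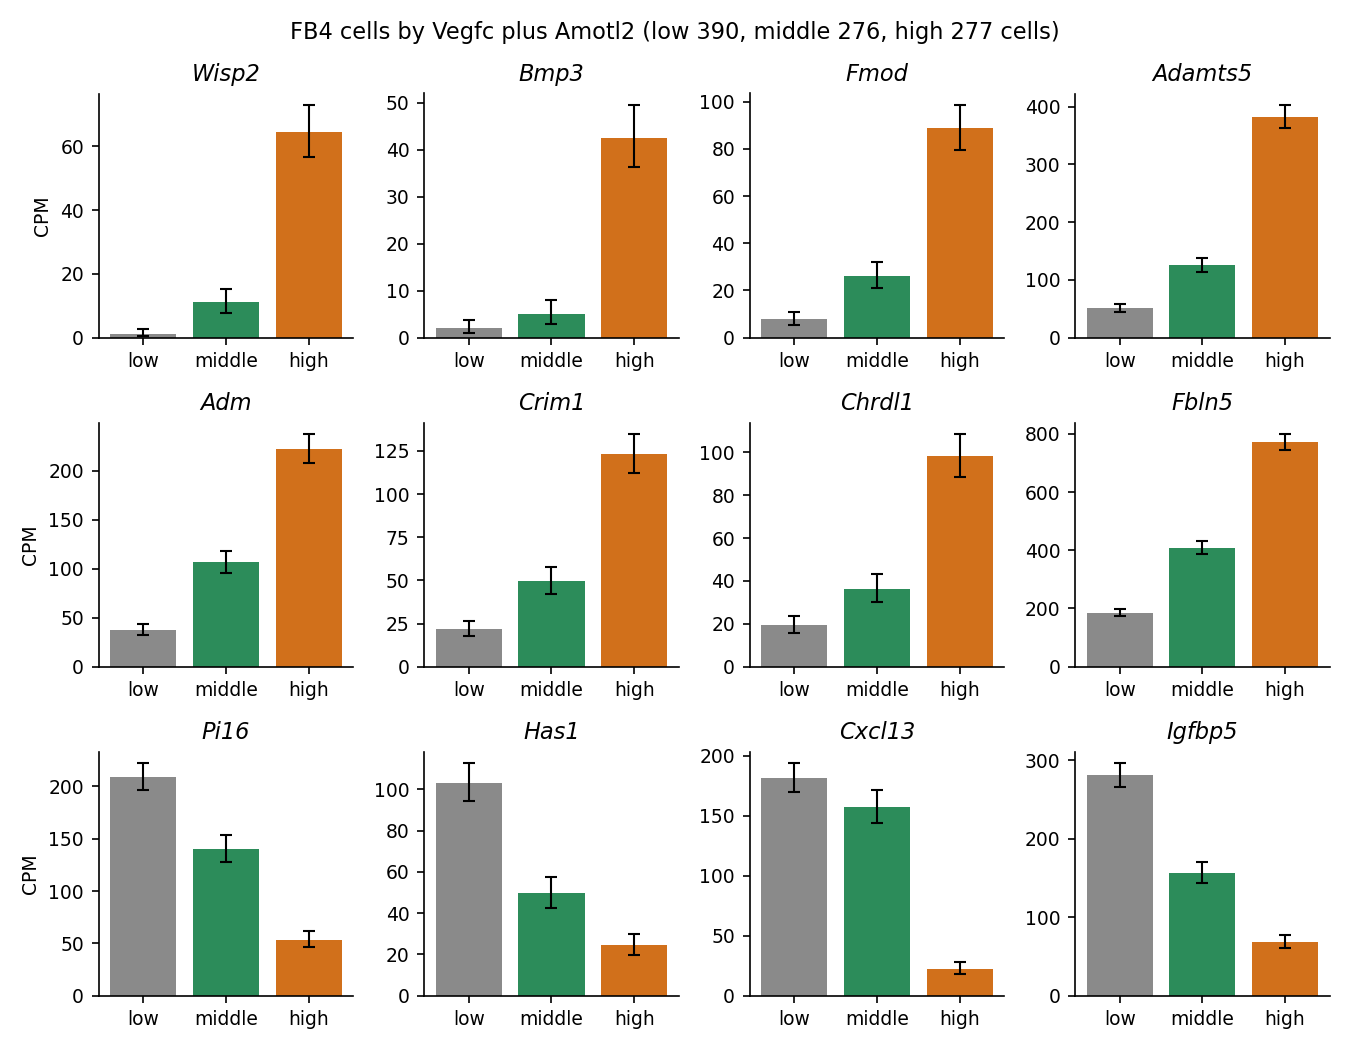
CPM of summed UMIs (y axis, each panel on its own linear scale from 0) of 12 genes in low (390), middle (276) and high (277) FB4 cells, with exact 95% Poisson intervals. Wisp2 to Fbln5 step up, with Wisp2 at 1.26, 11.1 and 64.4 CPM, and Pi16, Has1, Cxcl13 and Igfbp5 step down, with Pi16 at 209, 140.2 and 53.6 CPM.

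Of 16 counted YAP targets other than Amotl2, 5 (beside 2.12% of all genes) were at least 2 times higher in high cells, 11 passed neither threshold and the median was 1.63, beside 1.01 over all genes. Crim1, a transmembrane antagonist of BMPs, was at 123, 49.6 and 22.0 CPM (5.61 times), Cyr61 at 641, 285 and 178 CPM (3.60 times), Tead1 at 146 against 63.6 CPM, F3 at 153 against 72.2 CPM and Lats2 at 66.7 against 31.6 CPM. Ctgf was at 54.1 against 30.3 CPM (1.78 times). Yap1 (39.9 against 39.8 CPM) and Wwtr1, which encodes TAZ (119 against 153 CPM), did not pass. Vgll3, a cofactor of TEAD factors, was at 151, 55.7 and 18.4 CPM (8.20 times), and Cdc42ep3, an effector of CDC42, at 7.27 times. Of the 14 immediate-early genes none passed either threshold.

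In the lymphatic group, with Vegfc left out, 3 of 6 genes were at least 2 times higher and none was lower, and in the cluster 3 were higher and 1, Vegfa, was lower (0.418 times). Adm was at 222, 106 and 37.5 CPM (5.93 times, 5.04 to 7.01), seen in 76.2% of high and 28.2% of low cells. Vegfd was at 218, 103 and 75.7 CPM (2.88 times, 2.54 to 3.27), and Ccbe1 at 19.1 against 7.74 CPM. Vegfa was at 7.99 against 15.3 CPM. Of 6 counted BMP ligands 3 passed, Bmp3, Bmp4 (506, 339 and 242 CPM) and Bmp5 (19.6 against 6.49 CPM, the latter under its bound of 7.73 CPM). In the FB4-like cluster 2 of 5 passed, and Bmp5 stood at 0.940 CPM there, under that bound. Chrdl1, chordin-like 1, which binds BMPs, was at 98.2, 36.4 and 19.3 CPM, whereas Grem1, at 687, 671 and 674 CPM, was level, and of 5 counted BMP antagonists 1 was higher and 1 lower. Igf1 (402 against 171 CPM), Tslp, a cytokine that acts on dendritic cells (68.8 against 24.3 CPM), Pdgfa (44.8 against 12.6 CPM) and Pdgfd (49.5 against 20.5 CPM) were higher too. By group, 1 of 7 cytokines (Tslp) and 2 of 4 PDGF genes were higher, 1 of 7 IGF genes was higher (Igf1) and 1 lower (Igfbp5), and of 10 chemokine genes none was higher and 1 lower (Cxcl13), beside 2.12% and 1.04% of all genes. Of the 6 FB5 markers, Bmp3 and Bmp5 are these same ligands. The other 4 were level or near their free-RNA bounds, with Ednrb at 5.41 against 5.65 CPM and Sox6, Foxl1 and Bmp7 between 0.209 and 1.03 CPM in high and low cells.

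Among surface and cell genes, Dpp4, a dipeptidyl peptidase that marks adventitial fibroblasts, was at 74.0, 17.3 and 6.49 CPM (11.4 times), Basp1 at 217, 66.9 and 22.2 CPM (9.77 times), Fat1, an atypical cadherin, at 4.70 times, Cd28 at 5.14 times and Anxa3 at 4.18 times. Fabp5 (6.16 times), Ctps (6.00), St8sia2 (4.60) and Htra2 (4.56) completed the 20 leading genes. Contractile genes were 2 times higher in 3 of 14 (Myl9, Tagln and Cnn2, the last at 149 against 45.2 CPM) beside 2.12% of all genes, and in 5 of 14 in the cluster, beside 2.5%.

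Genes lower in high cells came partly from the same adventitial group. Pi16 was at 53.6, 140.2 and 209 CPM in high, middle and low cells (0.257 times), Has1 at 24.5, 49.6 and 103 CPM, and Gfpt2 at 37.1, 71.6 and 132 CPM. Dpp4 and Anxa3 of that group went the other way, so that of 15 counted 2 were higher and 3 lower, beside 2.12% and 1.04% of all genes. Of the rule genes, Cilp was lower (96.4, 206 and 281 CPM, 0.343 times), and Scara5 was at 154, 183 and 226 CPM, while Ackr4 (492, 444 and 410 CPM), Pcolce2 (513, 403 and 429 CPM) and Lbp (152, 109 and 97.5 CPM) leaned to the high cells without passing 2 times. Tmem100, a membrane protein that BMP signalling induces in endothelium, was at 5.93, 24.1 and 57.1 CPM (0.104 times, 0.0647 to 0.159). Cxcl13 was at 22.4, 157 and 181 CPM (0.124 times). It had a UMI in 25.9% of all FB4 cells, with a median of 0, and its highest value among low cells was 48.7 UMIs per 10000. Igfbp5 was at 68.3, 156 and 281 CPM. Gngt2 was at 22.4 against 72.6 CPM. Il1b, Gm11309, Pla2g2e, Lmo2, Ifi207, Fgf1 and Chodl, between 0.130 and 0.236 times, completed the 12 lowest.

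**Figure D5:**
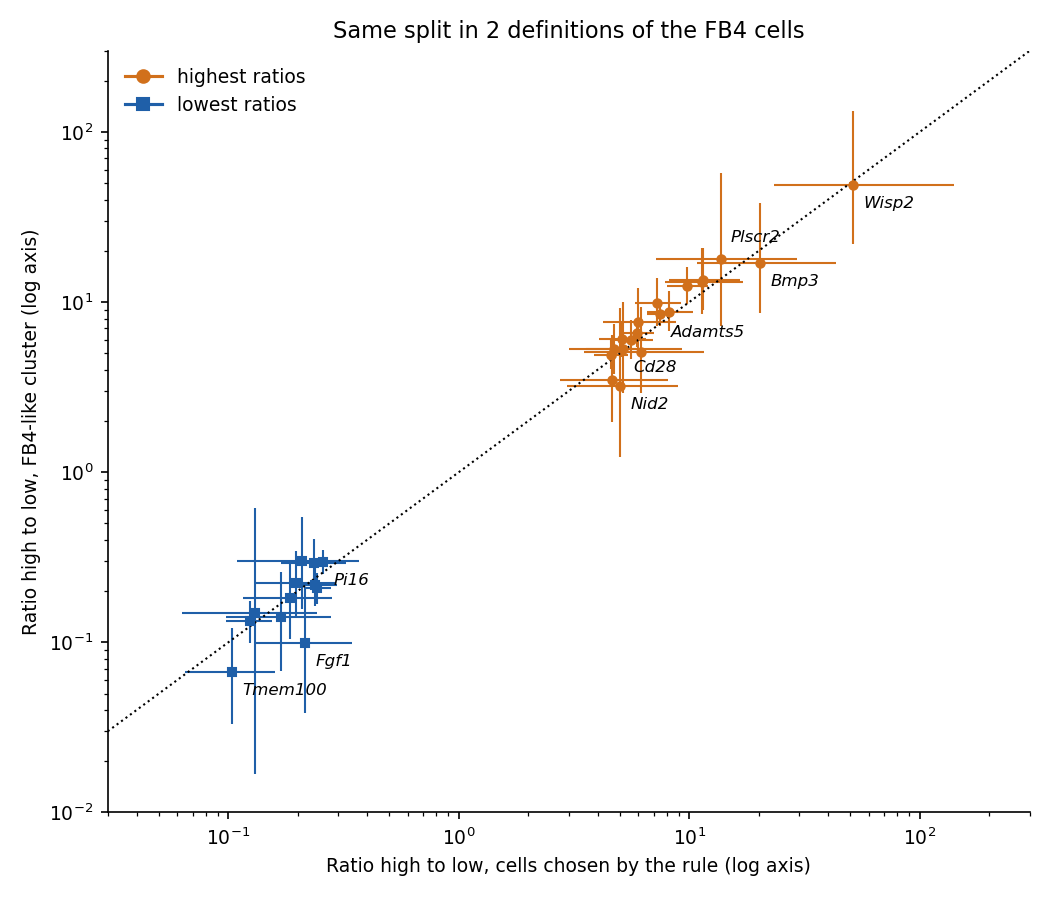
Ratio of high to low cells for the 20 highest (orange) and 12 lowest (blue) genes by the rule (x axis, log) and in the FB4-like cluster (y axis, log), with exact 95% intervals and the line of equality. 31 of the 32 genes are shown, since Bdnf had 0 UMIs in the cluster's low cells, and all 31 lie on the same side of 1 in both, from Tmem100 at 0.104 and 0.0669 to Wisp2 at 51.3 and 48.4. Of the cluster's 690 cells 672 meet the rule, and the genes were picked by the rule's ratios, so this is no second check.

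The cells that the split compares did not come equally from inside the cluster. Of the high cells 103 of 277 (37.2%) lay outside the FB4-like cluster, 78 of them in cluster 1, and of the low cells 93 of 390 (23.8%), 40 in cluster 2 and 45 in cluster 3. None of the 4 vFB1 and vFB2 markers passed either threshold between high and low cells. Adamdec1 (909.9 against 722 CPM) and Dkk2 (191 against 106 CPM) were nearer the high cells, and Shisa3 (117 against 135 CPM) and Serpina3n (179.9 against 253 CPM) nearer the low cells. The sum of the 4 was at 1398 against 1216 CPM. In rule cells inside the FB4-like cluster it went the other way, at 456 CPM in high against 654 CPM in low cells. In cells outside the FB4 set, the same split gave 175 genes higher and 120 lower of 8453. Side by side, Bmp3 was at 20.3 times in FB4 and 2.51 times in the other cells, Vegfd at 2.88 and 1.22, Tnc at 4.34 and 1.78, and F3 at 2.12 and 0.614. The low FB4 cells' Bmp3 level (2.09 CPM) is close to its free-RNA bound of 1.97 CPM, so the size of 20.3 is not read as one of expression. The differences between these pairs were not tested.

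Promoters were searched because the genes that go with Vegfc and Amotl2 include YAP targets, and TEAD factors bind the letters GGAATG. The 250 bases before each RefSeq start (GRCm38.p6) were read on both strands. Over all genes, 14.4% of 27018 had the letters in at least 1 window, and 12.6% of 32841 windows did. Of the 20 leading genes of high cells 11 had a window in the table, and 5 of those held the letters (Bdnf, Dpp4, Vgll3, Crim1 and Fat1), as did 2 of 8 among the 12 lowest (Cxcl13 and Igfbp5). Amotl2 had them and Vegfc did not, in a window that leaves out sequence further upstream, and shorter forms of the letters were not searched. A match describes letters and no binding, and these numbers are too small to set against the share of all genes. The windows below show the range, Vegfc that chose the cells, Vgll3 and Dpp4 from the top of the high set, and Cxcl13 from the low set. Each is written 5′ to 3′ on the gene's strand, with GGAATG or its reverse complement in capitals.
Vegfc (chr8:54077282-54077531, plus strand, no match): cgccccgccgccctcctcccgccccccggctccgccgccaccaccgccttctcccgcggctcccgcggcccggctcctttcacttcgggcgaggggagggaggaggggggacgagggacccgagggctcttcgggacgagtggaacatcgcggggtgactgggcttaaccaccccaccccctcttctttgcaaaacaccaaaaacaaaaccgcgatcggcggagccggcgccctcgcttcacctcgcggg
Vgll3 (chr16:65814939-65815188, plus strand, first letter of the match 63 bases before the start): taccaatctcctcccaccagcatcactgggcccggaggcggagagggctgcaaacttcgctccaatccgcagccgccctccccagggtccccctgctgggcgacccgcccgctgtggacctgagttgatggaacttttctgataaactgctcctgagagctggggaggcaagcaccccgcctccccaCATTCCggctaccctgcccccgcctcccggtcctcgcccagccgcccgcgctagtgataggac
Dpp4 (chr2:62412232-62412481, minus strand, match 118 bases before the start, inside an intron of Gm13561): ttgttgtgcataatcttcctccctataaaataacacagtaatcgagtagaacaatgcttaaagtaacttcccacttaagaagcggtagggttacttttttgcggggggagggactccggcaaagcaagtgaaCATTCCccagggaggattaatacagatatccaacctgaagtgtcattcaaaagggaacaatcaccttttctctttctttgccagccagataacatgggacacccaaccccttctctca
Cxcl13 (chr5:95956689-95956938, plus strand, match 20 bases before the start): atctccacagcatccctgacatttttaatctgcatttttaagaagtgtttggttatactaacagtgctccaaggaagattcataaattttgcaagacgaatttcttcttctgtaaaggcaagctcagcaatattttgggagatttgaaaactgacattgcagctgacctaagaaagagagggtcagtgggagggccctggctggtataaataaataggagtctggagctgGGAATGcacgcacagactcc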

How the data were processed

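Cells of 1 library (10x Chromium 3′ v3) were analysed, aligned to mm10 with Cell Ranger 3.0.2 and handled in Seurat 3.0.1 according to the submitters' processing notes. The deposited matrix, which the authors had filtered (1000 to 6000 genes and at most 7% mitochondrial UMIs per cell, genes in 3 or more cells, contaminating Ptprc+ immune and Pecam1+ endothelial cells taken out), holds the natural log of 1 plus UMIs per 10000. UMIs were read back from it, and 100.00% of 13789523 nonzero values came out whole within 0.001. It held 18619 genes, 4108 cells and 46054627 UMIs, from 1965 to 35727 per cell. UMIs were summed over cells into CPM with exact Poisson intervals, ratios have exact conditional binomial intervals and shares Clopper-Pearson intervals (95%). Ratios were counted at 2 and 0.5 for genes at 10 CPM or more. The fibroblast set and the gene lists were chosen with earlier results of these data known. Named were the rule genes, genes of the lists, and, by ratio, the 20 highest and 12 lowest (a UMI in 30% of the higher set and 15 points above the other set, or, between high and low cells, in 10%). The authors' sort gate excluded doublets before loading, and no caller of droplet doublets was run. Clusters came from Seurat 5.3.0 (1718 of 2000 variable genes, 30 components, resolution 0.5), without rule or listed genes. Positions are from GENCODE M21 and promoters from RefSeq. The ratio step was tested on simulated data. Python 3.11.15, scipy 1.17.1 and R 4.3.3 were used. 15 alternatives were planned and 3 added after seeing the data. The file has no columns of other samples, and the wild-type and 2-week libraries were not analysed here. A few genes that this rule would name are not reported here.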

Additional observations from a re-analysis of the deposited data

How the results depend on the processing

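All values rest on 1 library, so the settings below show how each value moves with the choice of cells and thresholds, not its biological spread. No paired analysis was possible because 1 library was analysed and no test was run. The Vegfc and Wisp2 ratios stayed on the same side of 1 in every setting where they could be computed. Single named genes that differed between cells with and without Xist are given under the other observations. The share of FB4 cells was 17.9% with at least 4 rule genes, 32.4% with at least 2, 18.5% with cells thinned to 5000 UMIs, 21.5% in cells with 8000 to 14000 UMIs, 25.6% in cells with Xist and 20.1% without, 32.9% with at most 5% mitochondrial UMIs, 25.7% without cells with 3 markers of FB5, smooth muscle or mural cells, 16.8% by the FB4-like cluster, and 16.4% and 6.60% for rule cells inside and outside that cluster. The Vegfc ratio to the other cells was 0.697 with at least 2 rule genes, 0.577 in the cluster, and 0.568 and 0.825 for rule cells inside and outside it. Genes at least 2 times higher in FB4 cells numbered 753 with no filter other than 10 UMIs and 74 for rule cells outside the cluster, and genes at 0.5 times or less 1278 with no filter, 195 at 20 CPM or more and 116 outside the cluster. Between high and low cells, 485 genes were higher with no filter, and the lower ones numbered 469 with no filter, 48 at 20 CPM or more, 175 after thinning, 187 in cells without Xist, 341 with the split by Vegfc alone and 184 outside the cluster. The Wisp2 ratio was 12.8 after thinning and 5.48 with the split by Vegfc alone, and could not be computed for rule cells outside the cluster, where low cells had no Wisp2 UMI. The share of high cells was 25.7% at 8000 to 14000 UMIs, 35.0% with Xist and 21.6% without, 25.8% in the cluster, 42.3% when 2 or more was set against 0, 5.94% by Vegfc alone, 16.8% by Amotl2 alone, and 25.9% and 38.0% inside and outside the cluster. The cause of these moves was not tested. The settings for rule cells inside or outside the cluster, and the setting that leaves out cells with an Xist and a Y-linked UMI together, were chosen after seeing the data.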

Other observations

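Of 11 counted genes of the hedgehog and Fox list, 1 was at least 2 times higher in FB4 cells than in the other cells, Foxp2 (2.40 times), and 2 were at 0.5 times or less, Foxf2 (0.297 times) and Hhip, which binds hedgehog ligands (24.1 against 85.1 CPM), beside 2.36% and 3.53% of all genes. The hedgehog receptor Ptch1 was at 114 against 215 CPM and passed neither threshold. Of 8 counted prostaglandin genes 1 was higher, Hpgd, which breaks prostaglandins down (2.65 times), and 2 were lower, Ptgs1, the constitutive cyclooxygenase (16.6 against 89.7 CPM), and the receptor Ptger2 (0.207 times).

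For 3 named genes the ratio of FB4 cells to the other cells lay above 1 in cells with Xist and below 1 in cells without, with neither exact 95% interval reaching 1. Adamts5 was at 1.11 times in cells with Xist and 0.800 times in those without, Ctps at 1.20 and 0.671 times, and Cxcl13 at 1.33 and 0.659 times. Others lay on opposite sides of 1 without meeting that rule, such as Amotl2 at 1.18 and 0.975 times and Htra2 at 1.02 and 0.865 times. The differences were not tested.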
